A study of Mus musculus with 58 samples.

Results

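Complement is a set of blood and tissue proteins that mark targets for uptake by phagocytes. C1q, built from the *C1qa*, *C1qb* and *C1qc* chains, opens the classical pathway, which then cleaves C4, C2 and C3, and fragments of C3 and C5 act on receptors such as C3aR1 and C5aR1. In brain, C1q is made mainly by microglia and takes part in the tagging of synapses for removal, while C1 inhibitor (*Serping1*) blocks the C1 proteases and CD59 blocks the membrane attack complex.

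The genes described here are 9 of the 31246 genes listed in the tables of both brain regions, chosen by name: *C1qa*, *C1qb*, *C1qc*, *C3*, *C4b*, *C3ar1*, *C5ar1*, *Serping1* and *Cd59a*. Their transcripts were measured in male C57Bl/6 *APOE* mice aged 14 to 15 months, in tissue from the entorhinal cortex (EC), which Alzheimer's disease affects early, and from the primary visual cortex (PVC), which it tends to spare. In each region there were 10 *APOE3/3* and 19 *APOE3/4* mice, which makes 58 libraries, and the same 29 animal numbers occur in both regions. In every group the mouse *Apoe* gene had been replaced by a human one that keeps the mouse regulatory sequence, so no group is wild type. The study drew its mice from separate colonies, and the labels do not give the colony of each animal. The values used were 1 mean per gene and region, taken by the authors over the libraries of both genotypes. They therefore describe the regions, and neither the genotypes nor single mice. No replicate spread goes with them, so no test was possible and the folds below have no error.

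A mean normalized count is the read count of a gene divided by a size factor of the library and averaged over the 29 libraries of a region. The tables of the regions were on different scales. The deposited means add up to 49385488 over all EC genes and 27058393 over all PVC genes, and the median EC over PVC ratio of the 15642 genes with a mean of at least 10 in both regions was 1.86. PVC means were therefore multiplied by this median before the regions were set side by side, and a fold of 1 is that of the median gene. The 5th and 95th percentiles of the scaled fold over those genes were 0.655 and 1.63, and the quartiles were 0.907 and 1.12. Genes were called past the limit at 1.5-fold. By this rule 6.78% of the 15642 genes were higher in the EC and 5.38% were higher in the PVC.

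The layer markers differed between the regions in the direction of their labels. *Reln*, *Wfs1* and *Calb1*, which mark cells of the superficial EC, were 3.34-, 2.04- and 1.59-fold higher in the EC. *Rorb*, *Cux2* and *Scnn1a*, genes of the upper and middle layers of sensory cortex, had EC over PVC folds of 0.429, 0.533 and 0.781. The regions also differed in their cell markers. All 7 oligodendrocyte markers were past the limit toward the PVC, with a median fold of 0.384, whereas all 8 meningeal fibroblast markers and all 5 perivascular macrophage markers were past it toward the EC, with medians of 2.24 and 2.34.

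The upstream sequences of *C1qb*, *C1qc* and *C5ar1* are shown because, of the 6 genes with a RefSeq entry, these hold in the 250 bases before their start the purine-rich letters AGGAAG or their reverse complement CTTCCT, a core bound by ETS factors. The sequences come from RefSeq on GRCm38.p6, a later build than the mm9 of the alignments, and run 5′ to 3′ on the minus strand, each of their genes being on that strand. They lie at chr4:136886201-136886450, chr4:136892915-136893164 and chr7:16259339-16259588. Capitals mark the letters searched.
*C1qb*: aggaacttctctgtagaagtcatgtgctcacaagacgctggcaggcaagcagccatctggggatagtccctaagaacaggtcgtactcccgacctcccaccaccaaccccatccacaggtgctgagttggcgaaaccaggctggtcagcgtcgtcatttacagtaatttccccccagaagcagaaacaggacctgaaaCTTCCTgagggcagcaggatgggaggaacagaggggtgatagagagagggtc
*C1qc*: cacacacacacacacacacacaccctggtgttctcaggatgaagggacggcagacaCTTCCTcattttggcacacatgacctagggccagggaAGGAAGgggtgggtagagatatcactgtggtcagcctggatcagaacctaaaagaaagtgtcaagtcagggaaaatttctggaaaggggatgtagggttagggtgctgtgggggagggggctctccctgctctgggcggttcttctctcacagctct
*C5ar1*: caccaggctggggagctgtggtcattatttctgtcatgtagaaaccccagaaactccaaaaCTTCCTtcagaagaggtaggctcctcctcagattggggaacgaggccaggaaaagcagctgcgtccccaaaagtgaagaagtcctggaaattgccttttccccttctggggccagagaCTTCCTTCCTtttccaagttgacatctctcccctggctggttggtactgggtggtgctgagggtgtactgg
The RefSeq table held 6 of the 9 genes, and *C1qa*, *C4b* and *Serping1* were without an entry. The letters were in 3 of the 6 sequences, at 52 bases before the start of *C1qb*, at 194 and 157 for *C1qc*, and at 189, 71 and 67 for *C5ar1*, where the last pair overlap. Of all 32851 promoters of that length, 29.5% hold them. The interferon-related letters TTCNNNGAA, searched on both strands, were in none of the 6, against 7.02% of all promoters. The interferon-stimulated response element, searched on both strands, was in that of *Cd59a* alone, against 2.98%. These are matches of letters and do not show binding.

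*C1qa*, *C1qb* and *C1qc* were the most abundant of the 9 genes per length, and their levels in the regions were nearly alike. The 3 chains form the C1q molecule in equal parts. Their genes stand side by side on the minus strand of chromosome 4 of NCBIM37 (the mm9 assembly), in a stretch of 18675 bases. *C1qb* lies at 136436044 to 136442102, *C1qc* at 136445719 to 136448980, and *C1qa* at 136451832 to 136454718. Gaps of 3616 and 2851 bases separate the neighbours.

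The mean normalized count of *C1qa* was 1663 for the EC and 919 for the PVC, which is 1707 on the EC scale. For *C1qb* the means were 1846 for the EC and 1035 for the PVC, or 1921 on the EC scale. *C1qc* had 1587 for the EC and 846 for the PVC, or 1571 on the EC scale. The resulting EC over PVC folds were 0.974, 0.961 and 1.01, all between the quartiles of all genes. Of the 15642 genes, 42.5% had a lower ratio than *C1qa*, 38.6% a lower ratio than *C1qb* and 52.9% a lower ratio than *C1qc*.

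Within a region, the chains can be set against each other only per length. Per kb of annotated exons, the EC level was 1697 for *C1qb*, 1599 for *C1qa* and 822 for *C1qc*. The *C1qc* level depended on the length used, since its 1931 exon bases include bases that its longest transcript lacks. Per kb of the longest transcript, 1203 bases, *C1qc* stood at 1319, and per kb of coding sequence its level was 2150, against 2262 for *C1qa* and 2432 for *C1qb*. By coding length, *C1qc* was 0.884 of *C1qb* for the EC and 0.841 for the PVC, and *C1qa* was 0.930 and 0.918 of it. The order *C1qb*, *C1qa*, *C1qc* was the same with each length and in each region, but whether these neighbours differ beyond the spread between mice is not known.

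**Figure D1:**
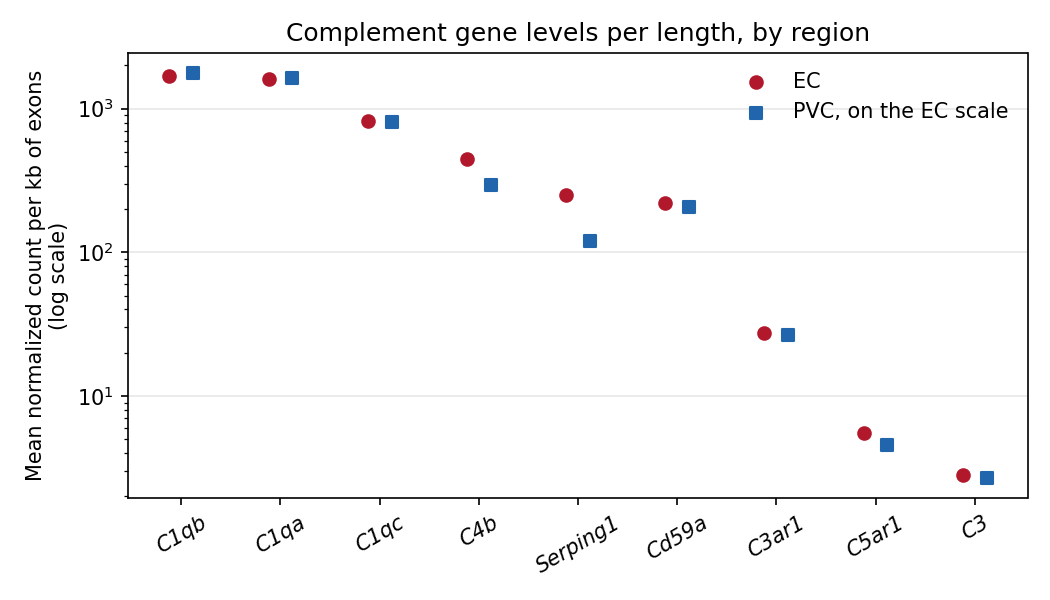
Mean normalized count per kb of exons (log scale) of the 9 complement genes, as the authors' mean over 29 libraries of the EC (circles) and of the PVC after scaling (squares). The points of a gene nearly meet except for *C4b*, at 448 and 295, *Serping1*, at 250 and 121, and to a lesser degree *C5ar1*, at 5.51 and 4.52.

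The ratios of the C1q genes lay within the range of the microglial markers, and also within that of the endothelial markers, 0.902- to 1.22-fold. They lay between the quartiles of all genes too, so this is not particular to microglia. The 11 microglial markers include *Csf1r* (the colony-stimulating factor receptor) and *Ctss* (the protease cathepsin S). These 11 ran from 0.913- to 1.11-fold with a median of 1.03, and none was past the limit in either direction. Their summed means were 17003 for the EC and 8765 for the PVC, a scaled fold of 1.04. In bulk tissue, fewer cells of a type and less RNA per cell cannot be told apart, so these values give the total of each transcript and not the number of microglia.

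*C3* and *C4b*, which both attach covalently to targets after cleavage, stood far apart in level. *C4b*, on chromosome 17 from 34865325 to 34880827, had a mean normalized count of 2554 for the EC and 903 for the PVC, the highest count of the 9 genes in the EC. On the EC scale the PVC mean was 1677, and the EC over PVC fold was 1.52. That is just past the limit, and 93.5% of genes had a lower ratio. *C3*, the protein on which all complement pathways meet, is on the same chromosome from 57343397 to 57367559. It had a mean of 14.5 for the EC and 7.45 for the PVC, with a fold of 1.05 that rests on few reads. Per kb of exons, the level of *C4b* was 159 times that of *C3* in the EC and 109 times in the PVC.

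*C4b* has a neighbouring copy, *C4a*, and how reads that match both were counted is not known. Of the 5231 windows of 149 bases, the read length, in the longest *C4b* transcript, 437 (8.35%) occur letter for letter in *C4a*. *C4a* had means of 99.5 for the EC and 53.2 for the PVC and a fold of 1.01, so its ratio was that of the median gene while that of *C4b* was not. Per kb of exons, *C4b* was 28.6 times *C4a* in the EC and 18.9 times in the PVC. The separate values remain uncertain to the extent of the shared windows. None of the other 8 genes had such a window in a coding transcript of another gene, and no exon of the 9 genes overlapped an exon of another annotated gene.

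The anaphylatoxin receptors were at low levels. *C3ar1*, the receptor of the C3a fragment, is on chromosome 6 from 122797156 to 122806179, and had means of 118 for the EC and 61.7 for the PVC. Its fold of 1.03 was close to the microglial median and between the quartiles of all genes. *C5ar1*, the receptor of C5a, is on chromosome 7 from 16832092 to 16844889, and had means of 14.2 for the EC and 6.26 for the PVC. Its fold was 1.22, from means too low in the PVC for the minimum of 10. Per kb of exons, the *C3ar1* level was 4.97 times that of *C5ar1* in the EC and 5.88 times in the PVC.

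The regulators behaved differently from each other. *Serping1* encodes C1 inhibitor, which inactivates the C1r and C1s proteases, and lies on chromosome 2 from 84605544 to 84615601. Its means were 580 for the EC and 151 for the PVC, or 281 on the EC scale. The fold of 2.07 was the highest of the 9 genes, and 97.6% of genes had a lower ratio. *Cd59a*, which encodes the membrane anchored inhibitor of the attack complex, is on the same chromosome from 103935958 to 103955511. It had means of 400.4 for the EC and 203 for the PVC, and its fold was 1.06. The paralog *Cd59b*, which is mainly known from testis, had means of 124 and 80.8 and a fold of 0.828, and shared no read-length window with *Cd59a*.

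Because of *Serping1*, the order per kb of exons was not the same in the regions. In both, *C1qb*, *C1qa*, *C1qc* and *C4b* came first and *C3ar1*, *C5ar1* and *C3* last. *Serping1* had rank 5 in the EC, at 250 against 221 for *Cd59a*, and rank 6 in the PVC, at 121 against 208 on the EC scale. By coding length *Cd59a* stood above *C4b* and *Serping1* in the EC, as only 369 of its 1811 exon bases are coding.

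Of the 9 genes, 7 had a mean of at least 10 in both regions, and *C3* and *C5ar1* did not. Among the 7, *Serping1* and *C4b* were past 1.5-fold toward the EC and 0 were past it toward the PVC, beside the 6.78% and 5.38% of all genes. The median log2 ratio of the 7 was 0.04, where that of all genes is 0 by construction. With scaling over all genes with a mean above 0, *C4b* fell short of the limit.

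Marker lists of other cell types also stood apart between the regions, and their part in the values of *Serping1* and *C4b* was not tested. The 8 meningeal fibroblast markers ran from 1.57- to 8.39-fold higher in the EC, the latter for *Dcn* (the matrix proteoglycan decorin), and their summed means were 14513 for the EC and 5404 for the PVC on the EC scale. None of them was at 0. The 5 perivascular macrophage markers ran from 1.67- to 2.67-fold higher, with sums of 1078 and 488. The astrocyte list had 1 of 9 genes past the limit, *Gfap* (an intermediate filament protein) at 1.53-fold, and a median of 1.11. The water channel *Aqp4* stood at 1.46-fold, the glutamate transporter *Slc1a2* at 0.999, and *S100b* and *Aldh1l1* at 0.908 and 0.784, and 3 of the 9 were below the median gene. The 8 endothelial markers had a median of 1.02, and the 6 neuronal markers one of 0.902. The 5 pericyte and mural markers had a median of 0.937, with *Acta2* alone past the limit, and the 3 blood markers ran from 1.40- to 1.49-fold. Choroid plexus markers were split, with *Sostdc1* past the limit toward the EC and *Ttr* toward the PVC among the 4 genes above the minimum. Of the 4 hippocampal and dentate genes above the minimum only *C1ql2* was past the limit. *Dsp* and *Tdo2* of that list had PVC means just under the minimum, 9.69 and 9.58, and folds of 1.99 and 1.59.

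**Figure D2:**
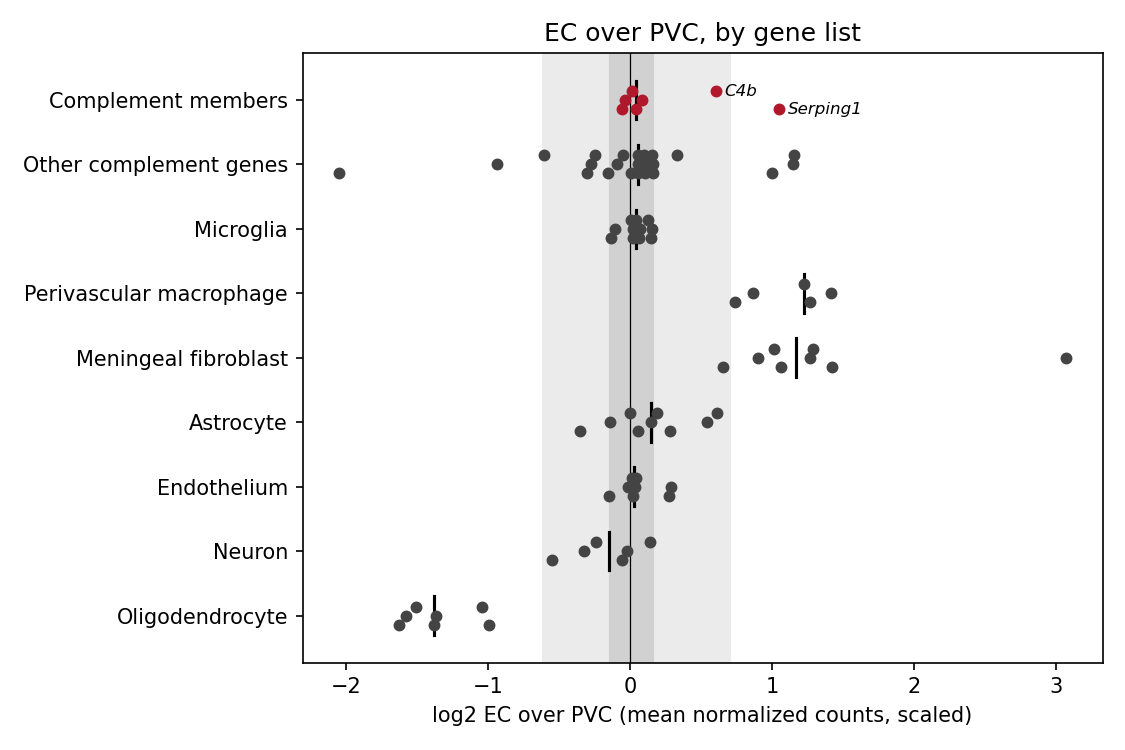
The log2 EC over PVC ratio of scaled means for each gene with a mean of at least 10 in both regions, by list. Points are genes, black bars are list medians, and the dark and light bands hold the middle of all genes between the quartiles and between the 5th and 95th percentiles. *Serping1* and *C4b* lie to the right of the other 5 complement members. Those 5 sit in the dark band of all genes, as do the microglial markers.

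The rest of the complement system was read from lists of 45 further listed genes, of which 24 had a mean of at least 10 in both regions. Of these 24, 3 were past the limit toward the EC and 3 toward the PVC, beside 6.78% and 5.38% of all genes. Their median fold was 1.04. With the 9 genes included, the counts were 5 and 3 of 31. *Hc* had a PVC mean under the minimum of 10 and is in none of these counts.

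In the classical pathway, *C2*, the protease partner of C4, was 2.23-fold higher in the EC, with means of 317 and 76.5. Of its read-length windows, 48.4% also occur in the annotated gene *Gm20547*. Exons of *Gm20547* on the same strand overlap 40.8% of the *C2* exon bases, so the *C2* count is uncertain. The C1 proteases *C1ra* and *C1s* stood the other way. *C1ra* had a mean of 46.5 for the EC and 104 for the PVC and a fold of 0.242, and *C1s* had 53.3 and 55.0 and a fold of 0.523. The neighbouring copy *C1rb* holds 26.2% of the windows of *C1ra*, and *C1s2* (listed as *Gm5077*) holds 2.89% of those of *C1s*. Exons of *C1s2* on the same strand overlap 5.87% of the *C1s* exon bases, and those of *Gm16567* on the opposite strand overlap 16.5%. The separate values of *C1ra* and *C1s* are therefore uncertain. The substrate of these proteases, *C4b*, and their inhibitor, *Serping1*, were past the limit in the opposite direction. The oligodendrocyte markers listed above moved in the same direction as *C1ra* and *C1s*, and their part in these values was not tested. *C1s2* and *C1rl*, a C1r-like protease, stood higher in the EC, with EC means of 18.1 and 13.7 and PVC means under 10.

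The lectin and alternative pathways had 5 genes above the minimum, and 0 past the limit. Of all genes, 6.78% were past it toward the EC and 5.38% toward the PVC. *Masp1*, a lectin pathway protease, had means of 401 and 266 and a fold of 0.812. *Masp2* stood at 1.11 and *Colec11* at 0.844. Properdin (*Cfp*), which stabilises the alternative convertase, had means of 664 and 399 and a fold of 0.896, and *Cfb* had 28.4 and 13.7. *Fcna*, a ficolin of macrophages, had means of 24.7 and 5.45 and a fold of 2.45, with the PVC mean under the minimum. The liver genes *Mbl1* and *Mbl2* had means under 1 in both regions.

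Of the terminal pathway, *C7* was past the limit toward the PVC, with means of 94.7 and 77.5 and a fold of 0.658. *C8g* had a fold of 1.04. *C6*, *C8a*, *C8b* and *C9* had means under 10 in both regions, so of the components of the attack complex itself only *C7*, *C8g* and, in the EC, *Hc* were above that level. *Hc* encodes C5, the source of the ligand of *C5ar1*. It had a mean of 179 for the EC and 2.28 for the PVC, a scaled fold of 42.5 with few reads behind the PVC value.

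Among the receptors, *Itgam* and *Itgb2*, which form complement receptor 3 of microglia, had folds of 1.09 and 1.04. *Cd93* stood at 1.07. *Cr2*, the receptor of C3d on B cells and follicular dendritic cells, was 2.21-fold higher in the EC with means of 52.8 and 12.8. *Itgax* and *C5ar2* (listed as Gpr77) had means under 10 in the PVC, and *Vsig4* was at 0.189 in the EC and listed at 0 in the PVC.

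Of the 9 further regulators above the minimum, 1 was past the limit, toward the EC, as were 6.78% of all genes. *Cd55*, which speeds the decay of convertases, had 283 and 76.3 and a fold of 2.00. *Cr1l*, the main membrane regulator of C3 convertases in mice, had a fold of 1.04 and *Cd46* one of 1.07. The secreted regulators *Clu* (clusterin) and *Vtn* (vitronectin) had EC means of 35273 and 3172 and folds of 1.12 and 1.26. The neuronal proteins with complement control domains, *Csmd1*, *Csmd2* and *Susd4*, had folds of 1.07, 0.966 and 0.939.

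**Figure D3:**
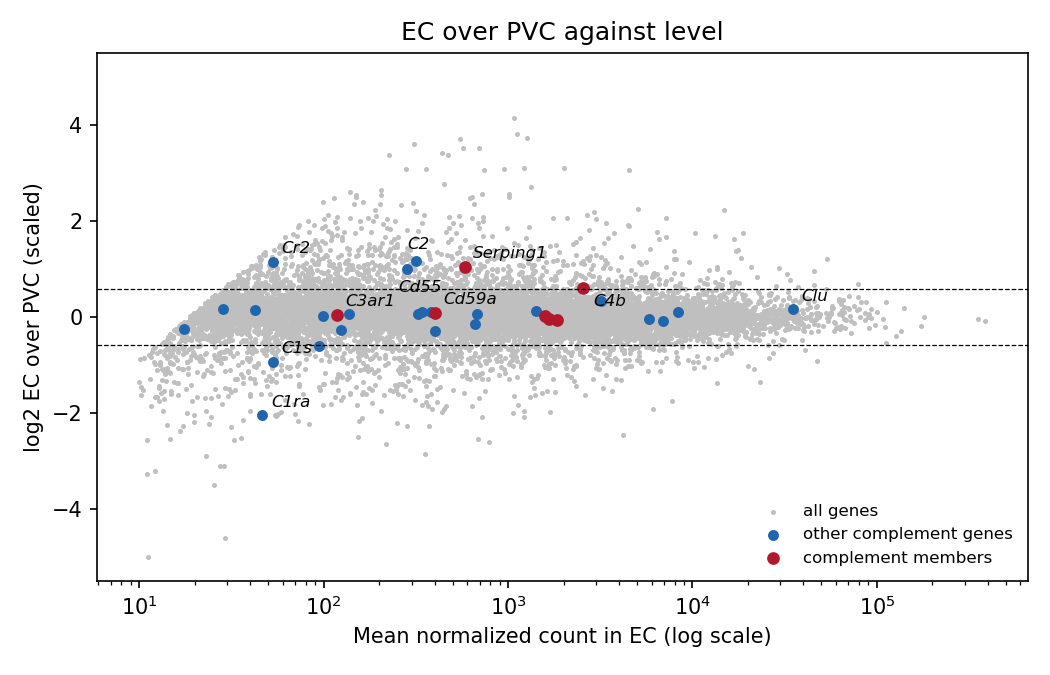
The log2 EC over PVC ratio of scaled means against the mean normalized count in the EC (log scale) for the 15642 genes with a mean of at least 10 in both regions. Dashed lines mark 1.5-fold, and the slanted upper left edge comes from the minimum on the PVC mean. *Serping1*, *C2*, *Cd55*, *Cr2* and *C4b* lie above the upper line, and *C1ra*, *C1s* and *C7* below the lower line.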

How the data were processed

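The RNA-sequencing libraries came from 29 male *APOE* mice, with EC and PVC tissue of each. Per the methods and processing notes, the authors aligned reads of 149 bases to mm9 with TopHat2 2.0.6 and Bowtie2 2.0.2.0, counted them per gene with HTSeq on an NCBIM37 annotation and used DESeq2 1.10.1. The authors deposited 1 table per region. The mean normalized count, a signal averaged by the authors over both genotypes, was used. The other columns of the deposited tables hold the authors' comparison of genotypes (log2 fold change, standard error, statistic and *p*-values) and were not used. Depth per library was not analysed here.

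Means were read with Python 3.11.15, numpy 2.4.6 and pandas 2.3.3 and drawn with matplotlib 3.10.9. The regions appear to have been normalized separately. PVC means were multiplied by the median EC over PVC ratio of genes with means of at least 10 in both, and genes past 1.5-fold were counted. The procedures were tried on simulated data with changes well past 1.5-fold and little noise. That does not test calls near the limit. Lengths are unions of exons in gencode vM1 on NCBIM37, which may differ from the annotation counted. Samples were grouped by their labels. Named were the 9 genes and further complement genes by list with a mean of at least 10 in a region. Some genes under 10 in both were named after their values were seen. Genes of the marker lists were also named, including some that led their list neither in level nor in EC over PVC ratio. Members, lists and motifs were chosen with earlier results of these data known. *Rbfox3*, *Map2* and *C1rb* were not analysed here, and a few genes of the lists are not reported here. Alternatives were other scalings, a pseudocount of 1, a lower and a higher fold limit, other lengths and other minimum means.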

Additional observations from a re-analysis of the deposited data

How the results depend on the processing

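The number of genes past the limit toward the EC was 2 with scaling by the column sums, by the upper quartile and over genes with a mean of at least 100, with a pseudocount of 1 and with a lower fold limit. It was 1, *Serping1*, with scaling over genes with any mean above 0 and with a limit of 2-fold. Without scaling it was 7, as every such mean is then higher in the EC. The number toward the PVC was 0 in each of these settings. The median log2 ratio of the 7 genes, 0.042 as reported, was 0.067 by the column sums, 0.063 by the upper quartile, 0.060 over genes with a mean of at least 100, 0.014 over genes with any mean above 0 and 0.94 without scaling. The scalings other than none shifted every ratio by between -0.03 and 0.02 on the log2 scale. Scaling over genes with any mean above 0 turned the log2 ratio of *C1qc* to -0.013, and the values of *C1qa* and *C1qb* were above 0 only without scaling. *C1qb*, *C1qa* and *C1qc* took ranks 1, 2 and 3 per length in the EC with exon, transcript and coding lengths. No paired analysis was possible because the tables hold no values of single mice. For the same reason no replicate could be left out, no interval can be given, and a difference smaller than the unknown spread between mice cannot be seen.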

Other observations

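Proteins with a C1q domain that are not complement components were set apart from the 9 genes. *C1ql1*, *C1ql2* and *C1ql3* encode secreted synaptic organisers, and *C1qtnf4* a related secreted protein. All 4 had ratios above the median gene, with a median fold of 1.58. Past 1.5-fold toward the EC were 2, beside 6.78% of all genes. *C1ql2*, known from dentate granule cells, is also the gene past the limit among the hippocampal and dentate genes above the minimum. It had means of 325 for the EC and 50.5 for the PVC and a fold of 3.46. *C1ql3* had means of 5602 and 1807 and a fold of 1.67, *C1ql1* a fold of 1.49 and *C1qtnf4* one of 1.33. The C1q chain genes themselves lay between 0.961 and 1.01.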
